A study of Homo sapiens with 24 samples.

Results

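HBE1, the embryonic ε-globin gene, and the β-globin locus control region upstream of it were examined in peak lists from CUT&RUN. This assay cuts out and sequences the DNA around a protein to which an antibody has tethered a nuclease. The stretch was fixed by position, as the 34 kb of chromosome 11 that end at position 5300000 (GRCh38) and hold all of HBE1, and no measured value entered the choice. It held 77 peaks of 24 libraries, which merged into 8 of the 79570 regions of the whole series. The libraries came from 3 edited lines of HUDEP-2, an immortalised human erythroid progenitor line kept under expansion conditions without further treatment. Each line is 1 clone. Clone TB carries TR4 with FLAG and MYC epitopes together with BCL11A with HA and MYC epitopes, clone T carries the tagged TR4 alone, and clone B carries the tagged BCL11A alone, and no untagged line was among the samples.

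Libraries were made in 7 groups of 3, with the antibody MYC in clone TB, TR4 in clone TB, TR4 in clone T, MYC in clone T, HA in clone TB, HA in clone B and MYC in clone B. IgG gave 1 library per clone. The 9 libraries that detect TR4 (TR4 antibody in clones TB and T, MYC in clone T) are called TR4-directed, and the 9 that detect BCL11A (HA in clones TB and B, MYC in clone B) BCL11A-directed. In clone TB the MYC antibody reads either protein, and those libraries entered neither set. Lists held 4621 to 14924 peaks in TR4-directed libraries, 12284 to 31432 in BCL11A-directed libraries and 2036 to 4828 in IgG libraries, and within each of the 7 groups replicate 3 had the fewest peaks. Read depth is unknown, and gene activity was not measured, so the erythroid identity of the cells could not be checked against marker genes here.

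The locus control region is the distal enhancer of the β-globin cluster, a row of nuclease-hypersensitive sites numbered outward from HBE1 that act on the embryonic, fetal and adult genes by looping to them. HS2, HS3 and HS4 carry most of its enhancer activity through clustered motifs for erythroid factors such as GATA1 and NF-E2, and HS5 is known as a CTCF-bound boundary element. BCL11A is a zinc finger repressor of the fetal γ-globin genes in adult erythroid cells. TR4 is an orphan nuclear receptor that binds direct repeats in the embryonic and fetal globin promoters together with its partner TR2.

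Of the 8 regions, 5 had a peak in at least 4 target libraries, and they lay in a row upstream of HBE1 in the order and at about the distances at which HS1 to HS5 are known. They carry those names here. The reference gene table has no record of the sites. HS1 spanned chr11:5275788-5276169 and began 5843 bases upstream of the 5′ end of HBE1. HS2 spanned chr11:5280584-5281046 and began 10639 bases upstream. HS3 spanned chr11:5284603-5284977 and began 14658 bases upstream. HS4 spanned chr11:5288107-5288409 and began 18162 bases upstream, and HS5 spanned chr11:5291346-5291491 and began 21401 bases upstream. HS1 to HS4 lay outside all gene records, and the outer 25 bases of HS5 overlapped the record of OR51AB1P, an olfactory receptor pseudogene. Median summits of neighbouring sites were 4848, 3899, 3530 and 3152 bases apart, counted outward from HS1 to HS5. The other 3 regions were narrow peaks of 1 to 3 libraries. No IgG library had a peak anywhere in the stretch.

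**Figure D1:**
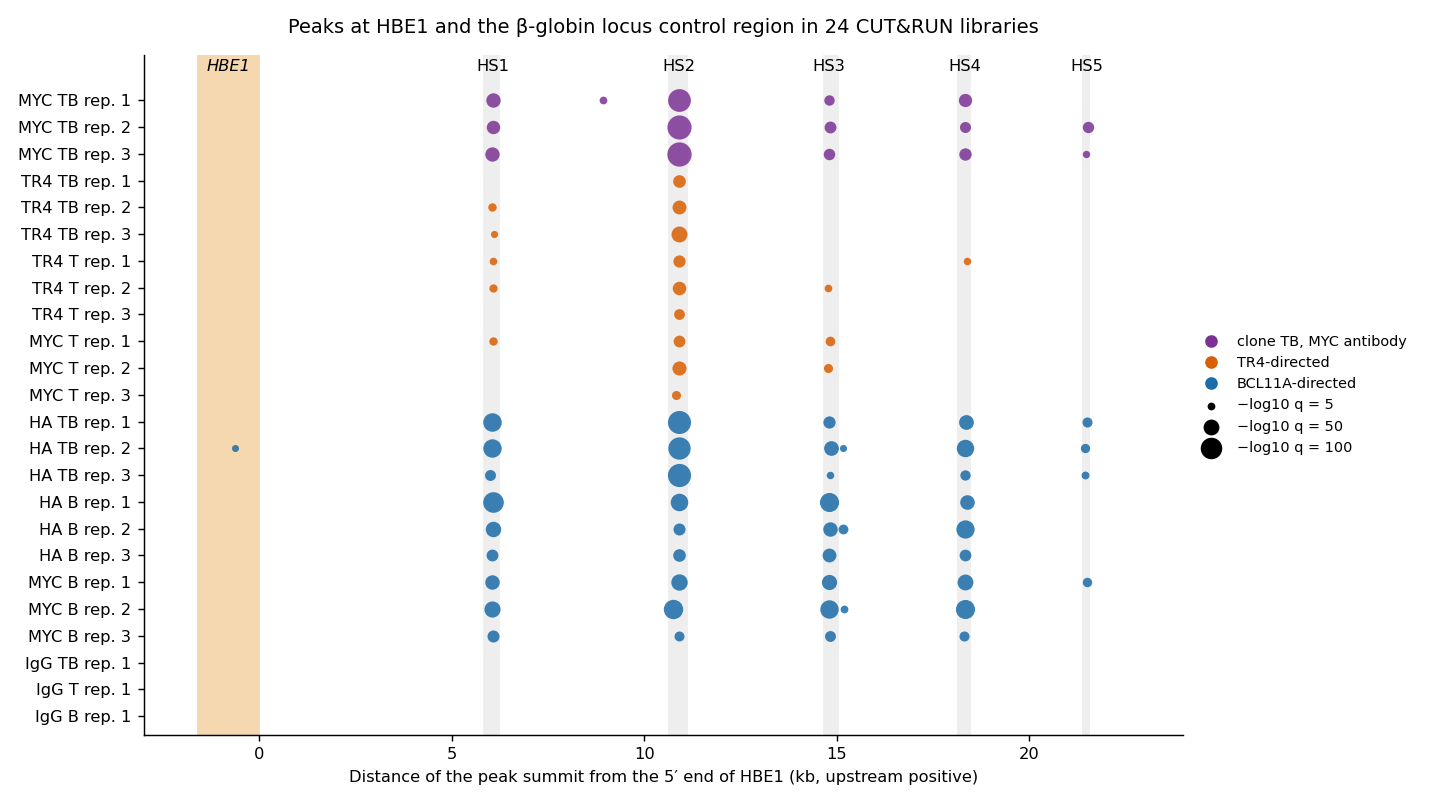
Each point is the summit of a deposited peak, placed by its distance upstream of the 5′ end of HBE1 (x axis, kb) and by library (y axis), with a point area that grows with −log10 q. HS2 has a peak in all 21 target libraries, HS1, HS3 and HS4 in all 9 BCL11A-directed libraries, and the 3 IgG libraries have no peak.

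HBE1 itself was nearly free of peaks. Within 1 kb of its 5′ end (the gene record spans chr11:5268345-5269945, minus strand), 0 of 9 libraries directed at TR4 and 1 of 9 directed at BCL11A listed a peak. A single library with a peak gives p = 1 in the two-sided Fisher's exact test whichever set holds it, so this test could not separate the sets. The peak belonged to replicate 2 of HA in clone TB, the longest list of its group with 27021 peaks. It covered 71 bases, chr11:5269312-5269382, inside the gene record, and its near edge lay 563 bases from the 5′ end. Whether these bases are exonic or intronic is not given in the table used here. Its fold enrichment of 4.02 exceeded only 2.72% of the peaks of that list, and its −log10 q was 2.33. With 500 bases on each side of the 5′ end, 0 libraries of either set listed a peak. At the depth of these lists, which is unknown, binding of either protein at the HBE1 promoter was not detectable. By comparison, the 5′ end of the adult gene HBB carried a peak within 1 kb in 0 libraries directed at TR4 and 9 directed at BCL11A. Those of the fetal genes HBG1 and HBG2 carried one in 0 and 5 each.

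HS2, the strongest classical enhancer of the region, was the site that TR4 and BCL11A libraries had in common. Its peak was listed in 9 TR4-directed libraries, in 9 BCL11A-directed libraries and in the 3 MYC libraries of clone TB, which is all 21 (two-sided Fisher's exact test of the first 2 sets, adjusted p = 1). Of the 24485 regions tested across the genome, 5.93% had a peak in all 18 libraries. Its fold enrichment was 15.2, 17.9 and 23.96 with the TR4 antibody in clone TB. It was 14.1, 16.8 and 11.6 with the TR4 antibody in clone T. With MYC in clone T it was 13.5, 18.3 and 7.58. These 9 values ran from 7.58 to 23.96, with replicate 3 lowest for both antibodies in clone T and highest in clone TB. Its −log10 q ran from 10.2 to 50.7 in TR4-directed and from 14.3 to 118 in BCL11A-directed libraries. With HA in clone TB the fold enrichment was 43.5 in each of the 3 libraries, against 15.5, 9.29 and 9.59 with HA in clone B. With MYC in clone TB it was 42.6, 44.7 and 46.5, against 14.4, 35.2 and 7.04 with MYC in clone B. All 6 MYC or HA libraries of clone TB were thus above all 6 of clone B, although MYC reads both tagged proteins in clone TB and BCL11A alone in clone B. For the HA libraries alone, 5.05% of the 6932 regions with a peak in all 6 of them had this order, and 8.63% the opposite one. The share for MYC and HA together was not computed. These folds are the authors' own values per peak. They are strictly comparable only within a list and were not tested between lists. List lengths of the 2 HA groups overlapped, with 24078, 27021 and 15163 peaks in clone TB and 25850, 29178 and 12284 in clone B.

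HS3 and HS4, the core sites beyond HS2, were found in BCL11A-directed libraries more often. For HS4, which is rich in GATA1 motifs, TR4-directed libraries listed a peak in 1 of 9 cases and BCL11A-directed ones in 9 of 9, and the site was called (Fisher's exact test, two-sided, adjusted p = 0.00394). HS3, known for opening chromatin in transgenic mice, had one in 3 and 9 and was called as well (Fisher's exact test, adjusted p = 0.0328). HS1, nearest to the genes, had one in 5 and 9 and did not pass (Fisher's exact test, adjusted p = 0.146). HS5 had one in 0 and 4 (Fisher's exact test, p = 0.0824, adjusted p = 0.146). This p is the smallest that peaks in 4 of 18 libraries allow, so HS5 could not be called. The same holds for every tested region with a peak in 4 of the 18 libraries. So 2 of the 5 sites tested were called with fewer TR4-directed libraries and 0 with more, where 25.6% and 2.00% of all 24485 regions were called in these directions. BCL11A-directed lists were longer. With every list limited to its 4621 strongest peaks, 1598 regions had more and 1487 fewer TR4-directed libraries, so that 51.8% of the calls had more, in place of 7.25% (489 and 6258 regions) with the lists as deposited. At that length HS1 had a peak in 0 and 9 libraries and was called, HS3 in 0 and 8 and HS4 in 0 and 9 (Fisher's exact test, adjusted p = 0.000319, 0.00197 and 0.000319). HS2 then had 9 and 8. HS3 was not called without the third replicates (3 of 6 and 6 of 6 libraries, Fisher's exact test, adjusted p = 0.327), nor were HS3 and HS4 without the MYC libraries (Fisher's exact test, adjusted p = 0.0656 each).

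At HS1 the TR4-directed peaks were lower and narrower than the BCL11A-directed ones, and at HS3 both measures overlapped. At HS1 the fold enrichment was 7.20 and 4.79 in replicates 2 and 3 of the TR4 antibody in clone TB, 5.85 and 6.62 in replicates 1 and 2 of that antibody in clone T, and 7.02 in replicate 1 of MYC in clone T. BCL11A-directed libraries had 12.4 to 38.6 there, with a median of 23.9. The peaks covered 85 to 134 bases in TR4-directed and 166 to 350 bases in BCL11A-directed libraries, so neither measure overlapped between the sets. Of the 9468 regions with at least 3 peaks of each set, 7.25% had all TR4-directed folds below all BCL11A-directed ones, and 3.31% had both folds and widths apart in this way. At HS3 the TR4-directed folds were 5.59 in replicate 2 of the TR4 antibody and 8.14 and 7.06 in replicates 1 and 2 of MYC, all in clone T. BCL11A-directed folds at HS3 were 3.83 to 29.0 with a median of 16.5. The lowest of these, from replicate 3 of HA in clone TB, was below all 3 TR4-directed folds. The TR4-directed peaks at HS3 covered 104, 196 and 249 bases, and the BCL11A-directed ones 177 to 326. At HS4 the only TR4-directed peak, from replicate 1 of the TR4 antibody in clone T, had a fold enrichment of 4.87 with a −log10 q of 4.14. BCL11A-directed folds at HS4 were 8.19 to 24.9 with a median of 15.6. Within clone TB, the TR4 antibody found HS3, HS4 and HS5 in 0 of 3 libraries and HA found each in 3 of 3 (Fisher's exact test, two-sided, p = 0.1 each, the smallest that 3 against 3 allow, adjusted p = 0.5 over 30 pairs of groups and sites). A peak in 0 TR4 and 3 HA libraries was the pattern of 28.3% of the 14021 regions with a peak in at least 3 of these 6 libraries, and the opposite pattern that of 2.91%. With MYC, HS4 was found in 0 of 3 libraries of clone T and 3 of 3 of clone B (Fisher's exact test, p = 0.1, adjusted p = 0.5), a pattern of 26.2% of 15330 regions, with 1.89% for the opposite one.

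**Figure D2:**
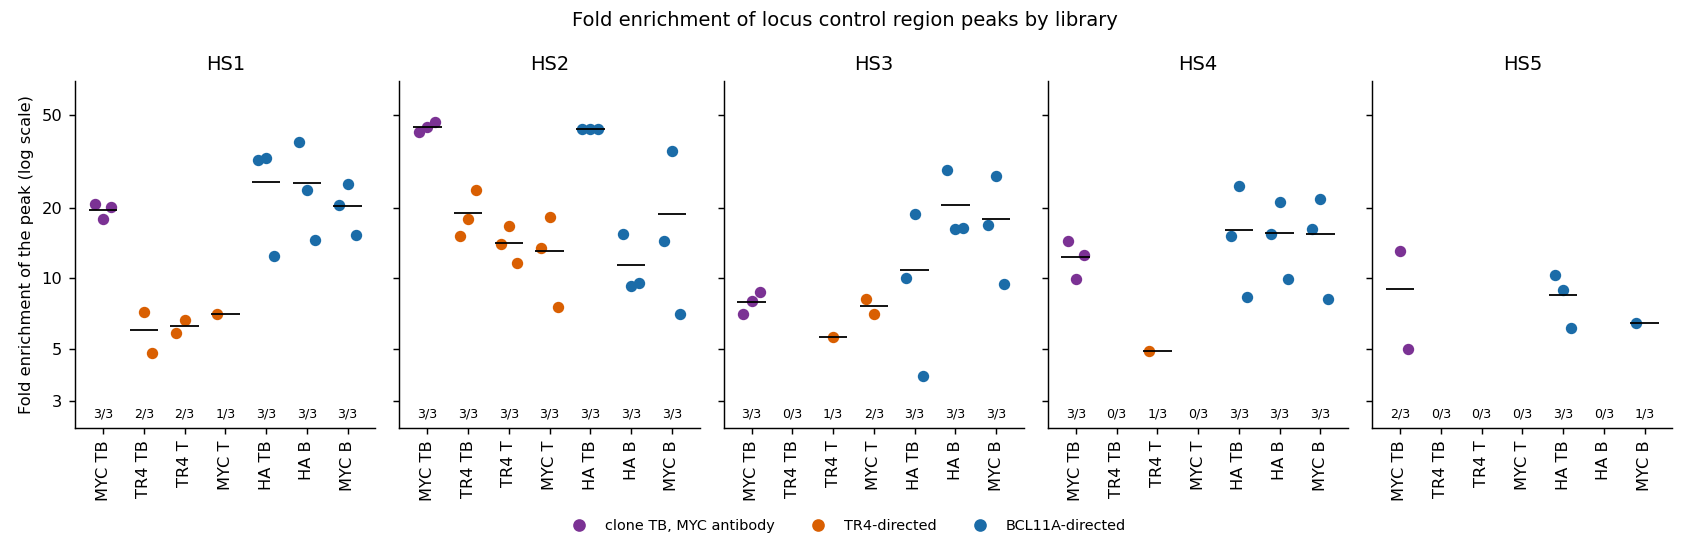
Fold enrichment of each library's peak (y axis, log scale) at HS1 to HS5 by antibody and clone (x axis), with the group mean as a bar and the number of libraries with a peak below. At HS2 the MYC and HA libraries of clone TB lie between 42.6 and 46.5, and at HS1 no TR4-directed library exceeds 7.20.

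By fold enrichment, HS2 led the sites in every library of clone TB and in 1 of 6 of clone B. In all 9 TR4-directed libraries HS2 had the highest fold of the stretch, although 3 of them had no other peak there. It was also the strongest site in each of the 3 HA and 3 MYC libraries of clone TB, but in 0 of 3 with HA and 1 of 3 with MYC in clone B. Ordered by −log10 p, HS2 came first in the same number of libraries of each group, except that it led in 2 of 3 MYC libraries of clone B. Within a list, the fold at HS2 divided by the fold at HS1 was 1.36, 1.33 and 3.50 with HA in clone TB, against 0.401, 0.389 and 0.659 with HA in clone B. By fold, every HA library of clone TB was above 1 and every one of clone B below 1. The share of other pairs of regions with such a split was not computed. By −log10 p the ratio was 1.58, 1.504 and 5.27 in clone TB, against 0.709, 0.557 and 1.17 in clone B, so that 1 clone B library was above 1 as well. The HA folds at the neighbouring sites overlapped between the clones. At HS1 they were 32.1, 32.8 and 12.4 in clone TB, against 38.6, 23.9 and 14.5 in clone B. At HS3 they were 10.0, 18.8 and 3.83 in clone TB, against 29.0, 16.2 and 16.5 in clone B, and at HS4 15.1, 24.9 and 8.29 in clone TB, against 15.6, 21.2 and 9.99 in clone B. Among HS1 to HS4, the folds of the HA groups did not overlap at HS2 alone. Of the 6932 regions with a peak in all 6 HA libraries, 5.05% had all clone TB folds above all clone B folds, and 8.63% the opposite. The ratio of HS2 to HS3 was 6.00 ± 4.75 in clone TB and 0.562 ± 0.0259 in clone B, and that of HS2 to HS4 3.29 ± 1.79 and 0.797 ± 0.312 (HA libraries, SD, n = 3 each). By −log10 p the ratio of HS2 to HS4 was 2.60, 1.69 and 6.18 in clone TB, against 1.504, 0.386 and 1.20 in clone B, where 2 of 3 libraries were above 1. With MYC the ratio of HS2 to HS1 was 2.05, 2.49 and 2.29 in clone TB, against 0.703, 1.38 and 0.460 in clone B. In the TR4-directed libraries with both peaks it was 1.92 to 5.0. These ratios compare the authors' folds inside 1 list and were not tested. Each clone is a single line, so clone and genotype cannot be told apart.

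**Figure D3:**
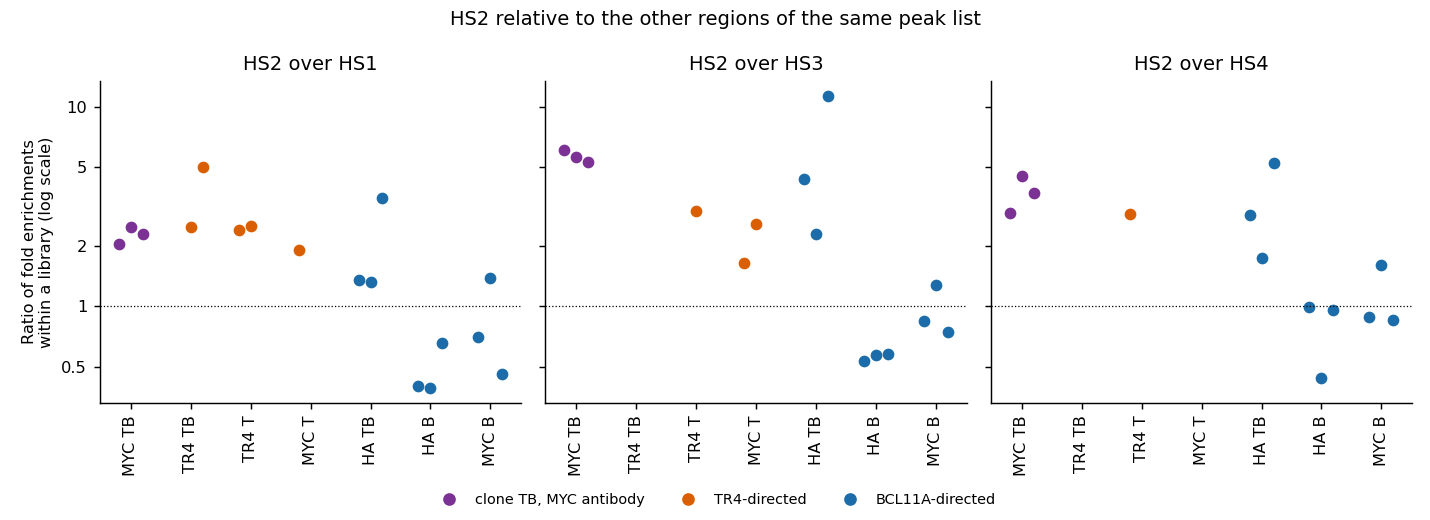
Ratio of the fold enrichment at HS2 to that at HS1, HS3 or HS4 within the same peak list (y axis, log scale) by antibody and clone (x axis); the dotted line marks equal folds. HA libraries of clone TB lie above the line in all 3 panels and HA libraries of clone B below it, the closest at 0.994 (HS4), which does not hold by −log10 p at HS1 and HS4.

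HS5, the boundary element, was listed more often in clone TB than in clone B, which did not pass the test. It had a peak in 3 of 3 HA libraries of clone TB, with folds of 10.3, 8.95 and 6.14, against 0 of 3 HA libraries of clone B (Fisher's exact test, two-sided, p = 0.1, the smallest possible, adjusted p = 0.5 over 30 pairs). Among 20064 regions with a peak in at least 3 of those 6 libraries, 1.41% had this pattern and 1.70% the opposite one. With MYC, HS5 was found in replicates 2 and 3 of clone TB with folds of 13.1 and 4.99, against replicate 1 of clone B with 6.44. No TR4-directed library had it. HS5 was the weakest of the 5 sites in presence, and at equal list lengths no library had it among its 4621 strongest peaks.

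The other 3 regions were seen in few libraries. A stretch 113 bases beyond HS3, chr11:5285091-5285178, had a peak in replicate 2 of HA in clone TB, of HA in clone B and of MYC in clone B. Their folds were 4.08, 8.30 and 4.96. Each of these was the longest list of its group. A stretch between HS1 and HS2, chr11:5278864-5278941, had a peak in replicate 1 of MYC in clone TB alone, with a fold of 5.79. The peak inside HBE1 was the third.

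The number of the 8 regions with a peak averaged 2.00 ± 0.866 per TR4-directed library and 4.89 ± 0.928 per BCL11A-directed one (SD, 9 libraries each). The counts were 1 to 3 and 4 to 7 and did not overlap (exact permutation test, two-sided, p = 4.11e-05, the smallest possible). BCL11A-directed lists were longer, and the share of other stretches of this length that separate the sets was not computed. This p therefore does not mark the stretch as particular. Per 1000 peaks of its list, a TR4-directed library had 0.0870 to 0.340 of these regions and a BCL11A-directed one 0.155 to 0.330, and the difference did not pass (exact permutation test, p = 0.483). MYC libraries of clone TB had 5 each. The difference was -2.89 regions, TR4-directed minus BCL11A-directed, and -2.78 with equal list lengths. In the neighbouring 34 kb on the side of the globin genes, TR4-directed libraries had 0 to 1 peaks and BCL11A-directed libraries 0 to 7. In the 34 kb on the other side, which hold the records of OR51B4 and OR51B2, both olfactory receptor genes, they had 0 and 0 to 1. TR4-directed libraries thus averaged 2.00 regions at the locus control region and HBE1, against 0.111 toward the globin genes and 0 toward the olfactory receptor genes.

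The summit of HS2 fell on the same base in nearly every library. It was at position 5280850 in 8 of 9 TR4-directed, 8 of 9 BCL11A-directed and 3 of 3 clone TB MYC libraries. The exceptions were replicate 3 of MYC in clone T, 75 bases closer to HBE1, and replicate 2 of MYC in clone B, 148 bases closer. Among the 1453 regions with a peak in all 21 target libraries, the median number of libraries that shared 1 summit base was 5, and 12 regions (0.826%) had 19 or more as HS2 did. Mean summits of TR4-directed and BCL11A-directed libraries differed by 8.11 bases at HS2 (exact permutation test, two-sided, adjusted p = 1 over 9468 regions, of which 7.75% were called). At HS1 the difference was 18.7 bases and at HS3 -27.1 bases, TR4-directed minus BCL11A-directed (exact permutation tests, adjusted p = 0.481 and 0.322). These tests rest on 5 and 9 libraries at HS1 and 3 and 9 at HS3, and do not show that the positions are alike. HS4 had 1 TR4-directed summit, at 5288318, and BCL11A-directed summits from 5288236 to 5288314. HS5 could not be compared.

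**Figure D4:**
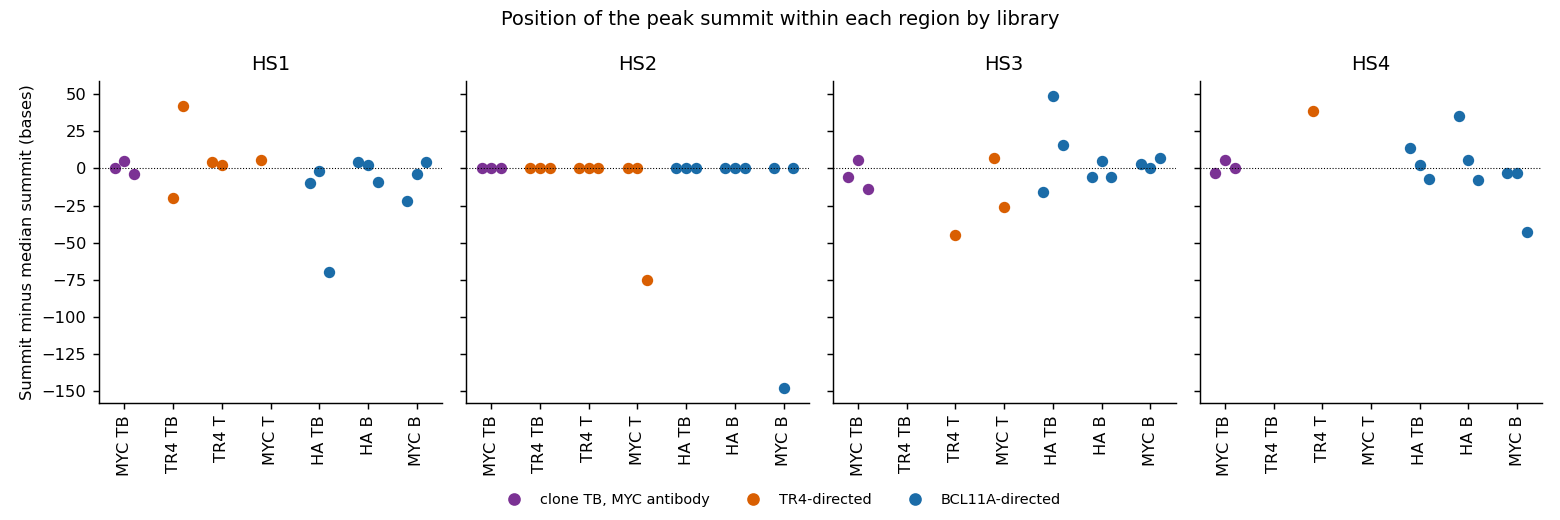
Summit of each library's peak minus the median summit of the region (y axis, bases; positive values lie farther from HBE1) by antibody and clone (x axis). At HS2, 19 of 21 summits fall on the same base, and at HS1, HS3 and HS4 they lie on more than 1 base in each set with several peaks.

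Sites and globin genes were then compared by the libraries in which they had a peak, over the 21 target libraries. The genes named are those that match each site in the most libraries among 11 other globin genes and gene-like transcripts of both clusters. HS4 matched the 5′ end of HBB, the adult gene, in 20 of 21 libraries: 12 had both, 8 neither, and replicate 1 of TR4 in clone T had HS4 alone. The 12 were the 9 BCL11A-directed libraries and the 3 MYC libraries of clone TB, and the 8 were TR4-directed, so this match follows the antibody sets. The share of all regions that match HBB as well was not computed. Next came HBA2, an adult α-globin gene, and HBZ, the embryonic one, in 19 each. HS3 matched HBA1, the other adult α-globin gene, in 19, and HBB and HBM in 18 each. HS1 matched HBA1 and HBA2 in 17 each, then HBB and HBM in 16. HS2 was present in all 21 libraries, so its matches (17 for HBA1, 13 for HBA2, 12 each for HBB and HBM) only count the peaks of each gene. HS5 matched the fetal genes HBG1 and HBG2 and the pseudogene HBBP1 in 19 each. These genes had peaks in the same libraries, so the matches are not separate. Of the 19, 6 libraries had both peaks and 13 neither, and the share of all regions that match as well was not computed. Of the 8 libraries with a peak at HBG1, 6 had HS5, and those without were replicate 1 of MYC in clone TB and of HA in clone B. The peak inside HBE1 lay in 1 of the 3 libraries with a peak at HBD, the minor adult gene. Their 19 matches comprise that library and 18 with neither peak, as any gene with few peaks would match an item with 1. Peaks at HBG1 and HBG2 are uncertain as to which copy they belong to, since the 2 genes are nearly identical. All these items share the lists' lengths, and the matches are a description.

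**Figure D5:**
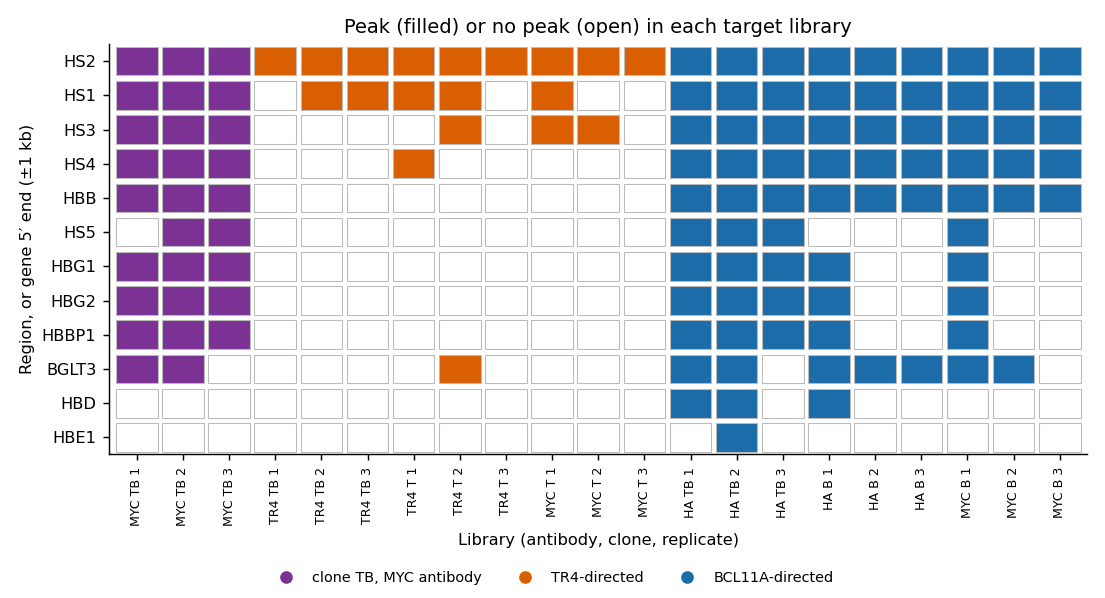
Filled squares mark a peak and open squares none, for the 5 sites and for the 5′ ends of the β-cluster genes (y axis) in the 21 target libraries (x axis). HS4 and HBB are filled in the same libraries but for replicate 1 of TR4 in clone T, and HS5 is filled only where HBG1, HBG2 and HBBP1 are.

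With the MYC antibody, which reads both tagged proteins in clone TB, HS1 to HS4 were found in all 3 libraries of clone TB and in all 3 of clone B. HS5 was found in 2 libraries of clone TB, 1 of clone B and 0 of clone T. HS1 was found in 3 of 3 libraries of clone TB, against 1 of 3 in clone T and 3 of 3 in clone B. HS3 was found in 3, against 2 in clone T and 3 in clone B, and HS4 in 3, against 0 in clone T and 3 in clone B. A peak in 3 MYC libraries of clone TB and 0 of clone T was the pattern of 28.2% of 16756 regions, and the opposite that of 0.275%. HS3 was the weakest of HS1 to HS4 with MYC in clone TB, with folds of 7.03, 7.98 and 8.77, against 8.14 and 7.06 in replicates 1 and 2 of clone T and 17.01, 27.4 and 9.45 in clone B. HS1 had folds of 20.7, 17.9 and 20.3 in clone TB, against 7.02 in replicate 1 of clone T and 20.5, 25.4 and 15.3 in clone B. HS4 had 14.5, 9.98 and 12.6 in clone TB, against 16.3, 21.9 and 8.19 in clone B. Of these comparisons by presence none passed after adjustment over 30 pairs (Fisher's exact test, smallest adjusted p = 0.5).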

How the data were processed

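The tools named in the submitters' processing notes are MACS2 2.1.4, SAMtools, Picard, Bowtie2 and Trimmomatic, and the build is GRCh38. What each tool did and which library served as control for peak calling are not given in the sources used here. Peak lists were deposited per library, and none was pooled. For each peak the authors deposited a linear ratio (fold enrichment), a −log10 p and a −log10 q from their peak caller, and a summit offset (another value deposited by the authors, in bases). Coordinates are 1-based. Peaks sharing at least 1 base were merged. Tests left out the 7349 regions that held a peak of any IgG library. Regions with a peak in at least 4 of 18 libraries were tested with Fisher's exact test on the number of libraries, and summits with exact permutation tests where at least 3 libraries of each set had a peak, both adjusted by Benjamini-Hochberg over all such regions at 0.05. A library's summit is that of its peak with the highest −log10 p. Tools were Python 3.11.15, NumPy 2.4.6, pandas 2.3.3 and SciPy 1.17.1. Both tests were tested on simulated data. For the test by region, the simulation made mean list length equal between the 2 sets, so it did not cover their difference in length.

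Gene positions came from a RefSeq table of GRCh38 without strands or exons; globin strands are textbook knowledge. The planned motif comparison was not run, since no genome sequence was used here. Named were HBE1, all 8 regions and, for each, the globin genes with the most matching libraries. Members and lists were chosen with earlier results of these data known. Whether replicate libraries are separate cultures is not in the labels, and the spread behind each p-value may therefore be technical only. No 2 lists were identical. Replicate numbers were not used to pair libraries across groups in the main tests.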

Additional observations from a re-analysis of the deposited data

Results flagged for a closer look

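Within the TR4-directed and BCL11A-directed sets, which mix 3 groups each, 5 single values stood apart from the rest of their set by their gap relative to the range. This was examined for 9 sets of values, of 4 to 9 libraries each. Chance flags about 1 in 20 sets where values are continuous. At HS2, where the other 8 summits of a set were identical, any differing summit is flagged. The HS2 summit of replicate 3 of MYC in clone T was at 5280775, where the other 8 TR4-directed summits were at 5280850. The HS2 summit of replicate 2 of MYC in clone B was at 5280702, where the other 8 BCL11A-directed summits were at 5280850. The HS1 summit of replicate 3 of HA in clone TB was at 5275932, against 5275980 to 5276006 in the other 8. The HS3 summit of replicate 2 of HA in clone TB was at 5284798, against 5284733 to 5284765. That library also had 7 regions of the stretch, where the other BCL11A-directed libraries had 4 or 5.

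The fold at HS2 relative to its neighbours pointed in opposite directions in the HA libraries of the 2 clones. Relative to HS1 the mean ratio was 2.06 in clone TB and 0.483 in clone B, relative to HS3 6.00 and 0.562, and relative to HS4 3.29 and 0.797. In each case all 3 libraries of clone TB were above 1 and all 3 of clone B below 1, the closest at 0.994 relative to HS4. By −log10 p in place of fold, clone B had 1 of 3 libraries above 1 relative to HS1 and 2 of 3 relative to HS4, so the opposite directions rest on the fold there. The difference was not tested. These ratios were picked for this split, and the share of other pairs of regions with such a split was not computed.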

How the results depend on the processing

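Of 295 combinations of a result and an alternative, 277 were the same. For a test this means that it kept its side of the threshold with no reversal of sign (HS2 presence, which differed by 0, has no direction to keep). For a count of regions or libraries it means a count equal to the main one or within a fixed ratio of it. Most combinations left out 1 library. The 5′ end of HBE1, with a peak in at most 1 library of the sets, could not be called under any setting. HS5 could not be called with all libraries of the sets in use. The number that stayed the same is therefore no measure of how firm each result is. The HS2 summit difference, called under no setting, reversed to -8.33 bases without replicate 2 of MYC in clone B and ranged from -8.33 to 16.4 with 1 library left out. Chosen after seeing the data, −log10 p in place of fold put HS2 above HS1 in 1 and above HS4 in 2 of 3 HA libraries of clone B, against 0 by fold. Also chosen then, scaling to 1000 peaks of the list gave a difference of -0.0248 regions per library, which did not pass (exact permutation test, p = 0.483). HS1 gained a call with −log10 q of at least 5 (difference of -6 libraries, TR4-directed minus BCL11A-directed) and with equal list lengths (-9). HS3 lost it without the MYC libraries (-5), without the third replicates (-3) and with every region tested (-6), and HS4 without the MYC libraries (-5); the first 2 of these settings use fewer libraries. Counts of called regions with more and with fewer TR4-directed libraries were 112 and 1545 without the MYC libraries and 1598 and 1487 with equal list lengths, against 489 and 6258; with every region tested the first was 316. The causes were not tested.

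With 1 library left out, the difference ranged from -5 to -3 at HS1, -1 to 1 at HS2, -7 to -5 at HS3, -9 to -7 at HS4 and was -4 at HS5, with no call changed (at HS5 only where at least 4 libraries were left with a peak). These differences compare 9 libraries with 8 and were not scaled to set size. At HS2 every library left in the sets had the peak, so its range comes from set size alone. The ranges at HS1, HS3 and HS4 reflect set size in part. The difference at the 5′ end of HBE1 was -1 library, and 0 with 500 bases on each side or without replicate 2 of HA in clone TB. The motif comparison was not run. The count with more TR4-directed libraries ranged from 559 to 795; it was 795, 785 and 761 when the replicate 3 left out was that of clone T with MYC, clone T with TR4 or clone TB with TR4. Deviations of same-numbered libraries of the 2 sets had correlations of -0.0791 to -0.0265. Between single pairs of groups these ran from -0.0844 (MYC in clones T and B, replicate 3) to 0.287 (TR4 antibody in clones TB and T, replicate 3). Replicate 3 also had the shortest list in all 7 groups. Whether the number marks a shared preparation is not in the labels. With the replicate block 507 and 6402 regions were called, and no call at a site changed. Depth is unknown and limits every statement that a peak was absent.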
